A study of Homo sapiens with 12 samples.

Results

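The 48 genes described here are interferon-stimulated genes and genes of antiviral nucleic acid sensing, taken from 57815 genes measured by RNA sequencing in human non-small cell lung cancer (NSCLC) cells. The members were chosen by name from a list of known interferon-response and sensing genes and matched to the files through their Ensembl identifiers, with earlier results of these data known. All 48 were found. The cells were 3 established NSCLC lines with a KEAP1 mutation per the labels: A549 and H2023, both labelled lung adenocarcinoma, and H460, labelled large cell carcinoma. KEAP1 targets the transcription factor NRF2 (gene NFE2L2) for degradation, so every control group here carried a KEAP1 mutation as well. RNA was taken 48 h after transfection with either a control siRNA or one directed at NRF2. Each of the 6 groups held 2 libraries. The library numbered 0 of each NRF2 siRNA group was made with siRNA 28 and the library numbered 1 with siRNA 30, and the study counted these as duplicates of the knockdown. The control siRNA is transfected RNA too, and no library of untransfected cells was analysed here, so the values compare transfected cells with transfected cells. The methods name electroporation and lipofection as delivery routes without giving the route for each line.

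Cells recognise foreign RNA and DNA with sensors such as RIG-I, MDA5, TLR3 and cGAS. The sensors switch on interferon genes, and secreted interferon acts through its receptors, the JAK kinases and the factor ISGF3, which contains STAT2 and IRF9, to raise a large set of antiviral genes. Double-stranded RNA, including some siRNAs, is a known trigger of these sensors, which is the reason for comparing the siRNAs one by one. Values are FPKM, sequenced fragments scaled to transcript length and to the total of the library, so that levels can be compared between genes. Differences are on the log2(FPKM + 1) scale, which understates changes of genes with low values, and a difference was called when limma's adjusted p over all tested genes was under 0.05. A gene was tested in a line when it reached 1 FPKM in at least 2 of the 4 libraries of that line. The control libraries are biological duplicates per the study, whereas the spread of a knockdown pair includes the difference between siRNAs, and the p-values measure only the spread between these libraries.

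The targeted gene was lower in every NRF2 siRNA library. NFE2L2 was at 38.2 and 30.9 FPKM in the A549 controls against 5.31 with siRNA 28 and 7.84 with siRNA 30, at 120 and 118 FPKM in the H2023 controls against 7.74 and 6.80, and at 144 and 99.5 FPKM in the H460 controls against 6.54 and 12.2. Within a line, relative depth ran from 92.5% to 107% of the first control library, and the authors' mean normalised counts summed to 3.3e+07 over all genes in A549, 1.42e+07 in H2023 and 1.4e+07 in H460. Mitochondrially encoded transcripts took 8.56% and 13.1% of the FPKM sum in the H460 controls against 20.8% and 26.0% in the H460 NRF2 siRNA libraries, 11.97% and 18.1% against 17.4% and 22.8% in H2023, and 0.892% to 1.56% in A549. A549 libraries were made after removal of ribosomal RNA and those of H2023 and H460 after polyA selection, so cell line and protocol cannot be told apart and A549 levels are not set against the other lines. Of the 5 epithelial markers, the keratins KRT8 and KRT18 were at 298 FPKM or more in all 12 libraries and KRT19 at 7.28 FPKM or more, whereas EPCAM and CDH1 did not pass 1.19 FPKM in H460 and lay at 6.23 FPKM or more in the other lines. The 5 epithelial markers summed to 2130 and 2550 FPKM in the H2023 controls against 4620 and 5270 with NRF2 siRNA, to 1140 and 1340 against 1740 and 2610 in H460, and to 6180 and 9110 against 7870 and 9190 in A549, and CDH1 was at 12.6 and 8.05 FPKM in the H2023 controls against 65 and 58.3. The part of these markers in the members' values was not tested. The adenocarcinoma markers NKX2-1, NAPSA and SFTPB summed to 1.41 FPKM at most and were thus close to absent in all 3 lines. Leukocytes express many members. Of the leukocyte markers, PTPRC and CD3E did not pass 0.470 FPKM in any library, and the summed list, carried by CD68, was at 14.9 and 16 FPKM in A549 controls against 26.8 and 31.1 FPKM with NRF2 siRNA, at 45.1 and 49.6 against 47.8 and 59.7 FPKM in H2023, and at 36.6 and 39.3 FPKM in H460 controls against 16.8 and 29.3 FPKM. CD68 had authors' mean normalised counts of 3.70, 0.755 and 3.27 in the lines in that order, low beside its FPKM, and this disagreement leaves the sums uncertain. Their part in the members' values was not tested.

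Many of the members carry a common response element in their promoters, and the windows of 7 members that passed the threshold in a knockdown comparison are printed to show it. ISGF3 binds the interferon-stimulated response element, searched here as GAAANNGAA on both strands from 250 bases before to 50 bases after the gene start in RefSeq promoters (GRCh38.p14). The table held 37 of the 48 members. The element was found in 24 of these 37 promoters (64.9%) and in 8.29% of all 27305 promoters. The core of the antioxidant response element bound by NRF2, searched as TGACNNNGC, was found in 9 of the 37 members (24.3%) and in 13.6% of all promoters. Each window below is written 5′ to 3′ on the strand of its gene and lies before the gene start. Capitals mark every match to GAAANNGAA or to its reverse complement, and neighbouring matches can share 3 letters. A match describes the letters and is no evidence of a bound factor. ISG15 covers chr1:1013364-1013424 on the plus strand, IFI6 chr1:27672257-27672368 on the minus strand, IFITM3 chr11:320867-320932 on the minus strand, TAP1 chr6:32853803-32853857 on the minus strand, IFIT1 chr10:89392488-89392549 on the plus strand, IFIT3 chr10:89327822-89327904 on the plus strand and SAMD9 chr7:93118087-93118135 on the minus strand.
ISG15: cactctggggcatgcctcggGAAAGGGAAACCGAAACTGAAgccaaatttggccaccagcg
IFI6: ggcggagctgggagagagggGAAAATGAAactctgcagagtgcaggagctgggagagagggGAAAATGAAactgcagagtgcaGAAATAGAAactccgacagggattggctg
IFITM3: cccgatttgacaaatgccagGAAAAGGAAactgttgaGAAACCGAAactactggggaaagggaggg
TAP1: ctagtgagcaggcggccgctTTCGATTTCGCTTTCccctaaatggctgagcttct
IFIT1: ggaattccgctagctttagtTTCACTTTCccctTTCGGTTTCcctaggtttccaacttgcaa
IFIT3: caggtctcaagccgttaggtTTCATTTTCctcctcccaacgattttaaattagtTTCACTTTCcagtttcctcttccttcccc
SAMD9: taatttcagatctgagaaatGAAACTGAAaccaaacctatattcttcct

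In H460, 6 of the 44 tested members rose with NRF2 siRNA and 0 fell. They were the antigen-presenting molecules HLA-B and HLA-C, the signalling factor STAT2, the RNA-sensing enzyme OAS1, the ubiquitin-like modifier ISG15 and the mitochondrial protein IFI6. Over all tested genes, 7.12% were called higher and 6.86% lower in this line, so the share of members called higher was 6 of 44 beside a background of 7.12%. The median log2 difference over all 48 members was 0.60 against -0.01 over all genes tested. The members not tested in H460, being too low, were IFITM1, MX2, BST2 and IFI27. OASL, MX1 and TRIM22 entered the test through the NRF2 siRNA libraries alone, and none of these 3 was called. Without genes of this kind, an alternative chosen after the values were seen, 6 of 41 members were higher beside 6.06% of genes, and 0 were lower beside 6.79%. In these bulk libraries, a change in the number of expressing cells and a change in RNA per cell cannot be told apart.

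HLA-B, which presents peptides to T cells (ENSG00000234745.5, chromosome 6, 31321649 to 31334844, minus strand, GRCh37), was at 20.8 and 20.4 FPKM in the H460 controls, 71.2 with siRNA 28 and 122 with siRNA 30. The control libraries lay within 1 FPKM of each other, and both knockdown libraries were far above them. HLA-B rose by 2.12 ± 0.30 (SE) on the log2 scale, with an adjusted p of 0.0178. HLA-C, a second class I molecule on the same chromosome (31236526 to 31239907, minus strand), was at 54.9 and 51.3 FPKM in the controls, 123 with siRNA 28 and 200 with siRNA 30. It rose by 1.55 ± 0.28, with an adjusted p of 0.0256. HLA-B and HLA-C are similar in sequence, so the split of reads between them is an estimate of the authors' counting.

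STAT2, a subunit of ISGF3 (chromosome 12, 56735381 to 56753987, minus strand), was at 5.57 and 8.01 FPKM in the H460 controls, 23.3 with siRNA 28 and 18.8 with siRNA 30. Here the siRNA 28 library was the higher of the pair, and the groups did not overlap. The increase was 1.51 ± 0.28, adjusted p = 0.0263. OAS1 makes an oligoadenylate second messenger on double-stranded RNA (chromosome 12, 113343661 to 113371024, plus strand). It was at 51.7 and 52.4 FPKM in the controls, 103 with siRNA 28 and 164 with siRNA 30, a rise of 1.30 ± 0.27 with an adjusted p of 0.0325. ISG15, which is attached to proteins during an antiviral response and whose printed promoter holds 3 matches to the response element, was at 2.31 and 2.45 FPKM in the controls, 5.55 with siRNA 28 and 9.76 with siRNA 30. It rose by 1.31 ± 0.33, adjusted p = 0.0466. IFI6, also with 3 matches, was at 9.72 and 11.2 FPKM in the controls, 19.5 with siRNA 28 and 30 with siRNA 30, and rose by 1.14 ± 0.29, adjusted p = 0.0475. For each of these 6 members both knockdown libraries lay above both controls, as for 28.7% of all H460 genes at 1 FPKM in both groups. The 6 were picked by the test on these same libraries, so this order adds no support to their calls.

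The H460 count depended on the filter and on single libraries. With every gene of any value tested, 0 members and 0% of all genes were called. The count was also 0 without either control library, where at most 0.0381% of all genes were called. Without the siRNA 28 library, where siRNA 30 alone stood against the controls, 18 of 41 members were higher beside 10.8% of all genes. Without the siRNA 30 library, STAT2, OAS1, HLA-B and HLA-C were higher, 4 of 39 beside 7.94% of all genes, and IFI44L was lower. It was 12 of 46, all higher, beside 10.2% of all genes after rescaling without mitochondrial transcripts, a rescaling that moved the median of all genes by 0.20, and the median of the members was then 0.79. The part of mitochondrial RNA in the result was not tested beyond this rescaling. Each of the 6 calls was kept in 5 to 7 of 10 alternative settings.

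**Figure D1:**
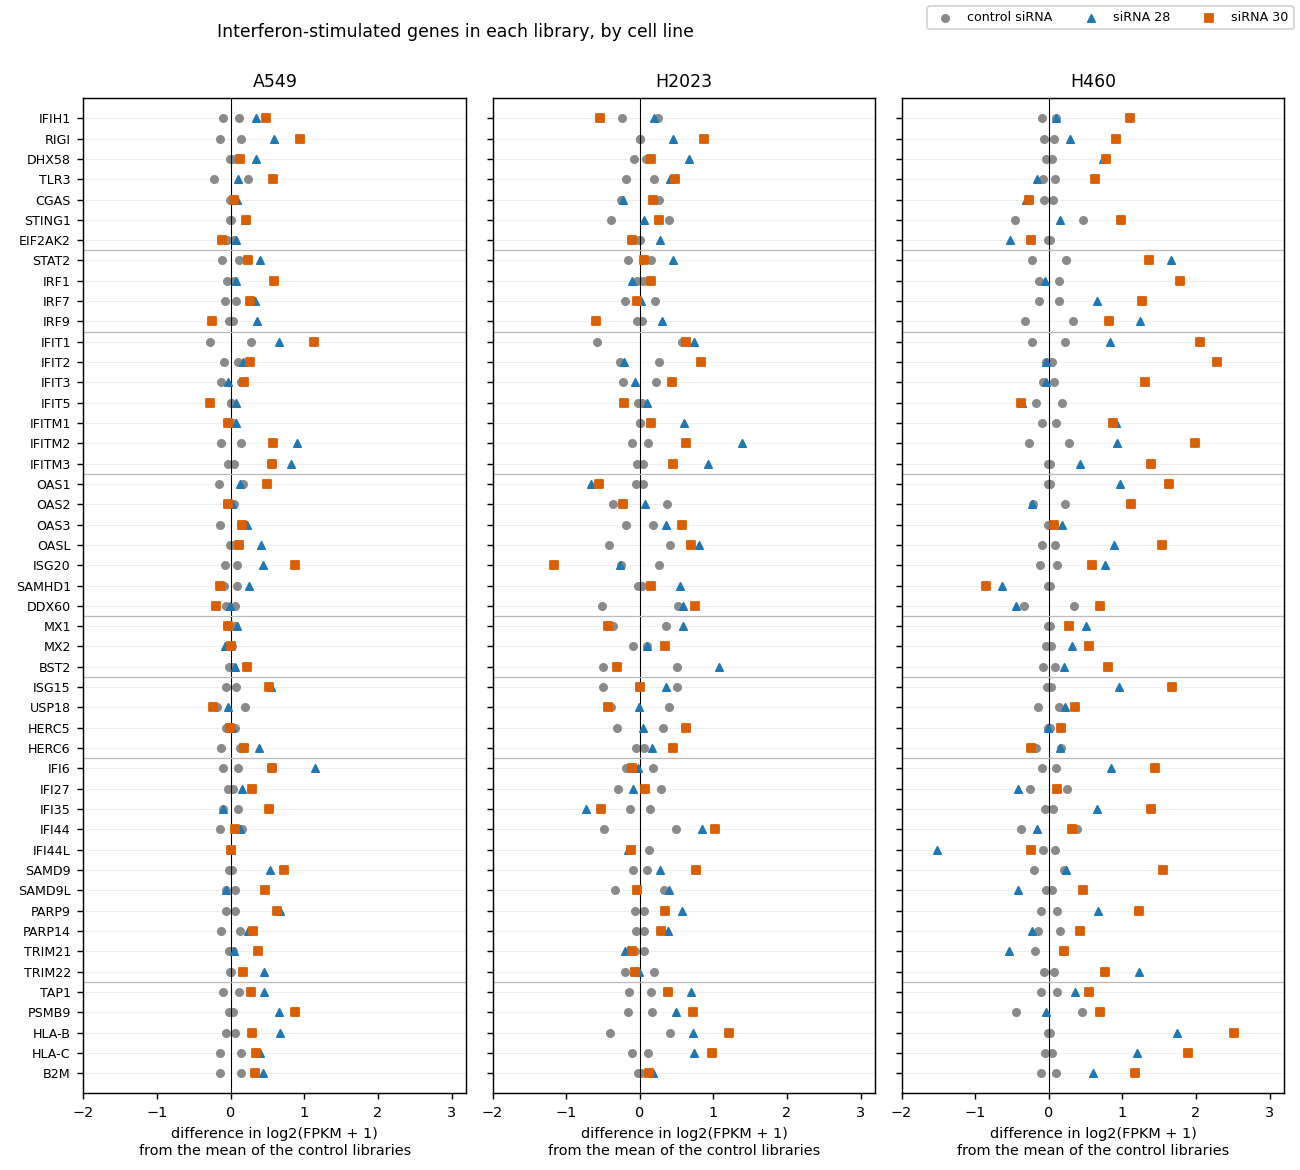
Each of the 48 members (rows, grouped by role) in every library of A549, H2023 and H460, as the difference in log2(FPKM + 1) from the mean of the 2 control libraries of the line. Grey circles are control siRNA, blue triangles siRNA 28 and orange squares siRNA 30, and in H460 the orange squares of IFIT2, IFIT1, HLA-B, IFITM2, HLA-C and IRF1 lie farthest to the right.

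In A549, 0 of the 34 tested members passed the threshold by limma, where 0.122% of all tested genes were called higher and 0.554% lower. Without adjustment, p was under 0.05 for 11 members, all higher, and for 13.3% of all tested genes. The smallest adjusted p was 0.156, for the immunoproteasome subunit PSMB9, at 5.89 and 5.66 FPKM in the controls, 9.66 with siRNA 28 and 11.4 with siRNA 30. The median over all 48 members was 0.25 against 0.02 over all tested genes. The 14 members too low to test were DHX58, STING1, IFIT2, IFITM1, OAS2, OASL, MX1, MX2, BST2, IFI27, IFI44, IFI44L, SAMD9L and TRIM22, and IFI44L was listed at 0 in all 4 libraries. IRF7 and IFITM3 were tested through the NRF2 siRNA libraries alone. Without the siRNA 30 library, 1 member (IFI6) was called higher, of 31 tested, beside 0.975% of all genes.

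The members that differed most in A549 were IFIT1, IFI6, RIGI, PSMB9 and IFITM2. IFIT1, which binds foreign RNA ends and blocks their translation, was at 1.68 and 0.816 FPKM in the controls, 2.48 with siRNA 28 and 3.85 with siRNA 30 (difference 0.90 ± 0.27, adjusted p = 0.274). IFI6 was at 3.83 and 3.18 FPKM in the controls, 8.93 with siRNA 28 and 5.63 with siRNA 30 (0.85 ± 0.24, adjusted p = 0.243). IFITM2, a membrane protein that hinders virus entry, was at 4.80 and 3.79 FPKM in the controls, 8.83 with siRNA 28 and 6.86 with siRNA 30 (0.74 ± 0.19, adjusted p = 0.234). In each of these 3 genes, picked for large differences, the groups did not overlap, and no difference passed the adjusted threshold. Both knockdown libraries lay above both controls for 24.2% of all A549 genes at 1 FPKM in both groups.

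In H2023, 0 of the 42 tested members passed the threshold by limma, with backgrounds of 0.327% higher and 0.583% lower. Without adjustment, p was under 0.05 for 9 members, 7 of them higher, and for 16.9% of all tested genes. The smallest adjusted p was 0.117, for HLA-C, at 168 and 196 FPKM in the controls, 302 with siRNA 28 and 360 with siRNA 30 (difference 0.86 ± 0.18). The median over all 48 members was 0.24 against 0.02. TLR3, IFITM1, OAS2, MX2, IFI27 and TRIM22 were not tested. Without the siRNA 28 library 3 members were called (HLA-B and HLA-C higher, ISG20 lower), beside 11.3% of all genes called, and without the siRNA 30 library 3 were called higher (IFITM2, IFITM3 and HLA-C), beside 5.69% of all genes.

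The other large differences in H2023 were in IFITM2, HLA-B, IFI44 and OASL. IFITM2 was at 45.6 and 39.1 FPKM in the controls, 112 with siRNA 28 and 65.5 with siRNA 30 (1 ± 0.28, adjusted p = 0.185). HLA-B was at 25.7 and 46.0 FPKM in the controls, 57.6 with siRNA 28 and 80.8 with siRNA 30 (0.97 ± 0.32, adjusted p = 0.239). The H2023 control libraries differed from each other in several members. IFI44 was at 1.36 FPKM in the first control and 3.63 in the second, 4.95 with siRNA 28 and 5.72 with siRNA 30 (0.94 ± 0.37, adjusted p = 0.290). OASL, a relative of the OAS enzymes without their activity, was at 1.37 and 3.21 FPKM in the controls, 4.53 with siRNA 28 and 4.13 with siRNA 30 (0.75 ± 0.33, adjusted p = 0.331). The second control was the higher one for IFI44, OASL, IFIT1, ISG15 and MX1 but the lower one for BST2 and IFIH1.

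Each siRNA was also taken on its own, by counting the members whose library lay above or below both controls of the line. Genes that reached 1 FPKM in the libraries of 1 group alone were left out, since the filter fixes their order. These were IRF7 and IFITM3 in A549 and OASL, MX1 and TRIM22 in H460. In A549, 25 of 32 members lay above with siRNA 28 (background 45.6% of such genes), 25 of 32 with siRNA 30 (36.1%) and 21 of 32 with both (24.2%). Below both controls lay 0 members with siRNA 28 (31.6%), 6 with siRNA 30 (39.3%) and 0 with both (20.1%).

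In H2023 the members above were 26 of 42 with siRNA 28 (41.5%), 23 of 42 with siRNA 30 (43.3%) and 19 of 42 with both (25.7%), and those below were 6 (37.8%), 10 (38.4%) and 4 (21.7%). In H460 the members above were 22 of 41 with siRNA 28 (40.0%), 34 of 41 with siRNA 30 (41.1%) and 22 of 41 with both (28.7%), and those below were 12 (43.8%), 6 (43.9%) and 5 (32.0%). The share above was thus larger among the members than among all such genes in each of these counts, and the share below smaller. Over all 48 members, the tested and the low ones, both knockdown libraries lay above both controls for 30 in A549, 21 in H2023 and 28 in H460, and below both for 0, 4 and 5. These wider counts take in the members left out above and members near 0 FPKM. No share of all genes was counted beside them, so they are no result about the members. All counts here are of libraries, with no test, and members of one response are not independent of each other.

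**Figure D2:**
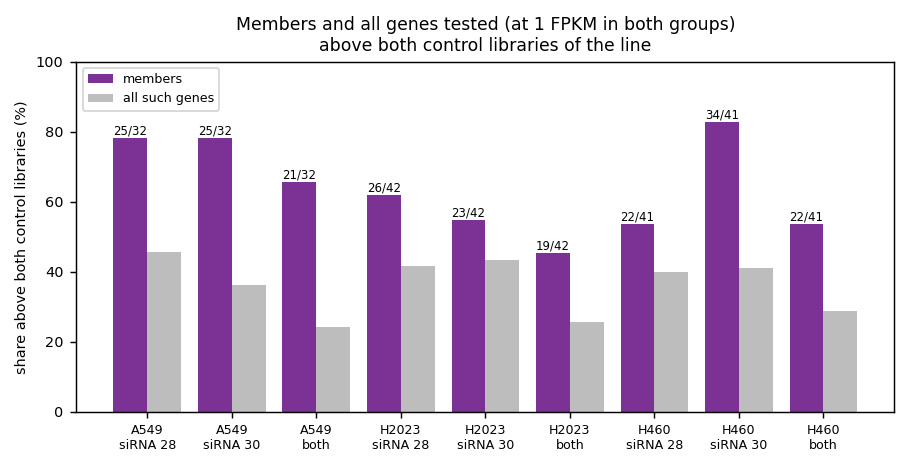
Share of tested genes with 1 FPKM in both groups (per cent, axis from 0) whose siRNA 28 library, siRNA 30 library, or both, lay above both control libraries of the line, for the members (purple, with counts) and all such genes (grey). The purple bars exceed the grey bars in all 9 pairs, with the widest gaps for siRNA 30 and for both siRNAs in A549 and for siRNA 30 in H460.

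Of the 31 members tested in all 3 lines and not through 1 group alone, 10 lay above both controls with both siRNAs in every line (background 7.62%), and 0 lay below in every line (7.22%). The 10 were the RNA sensor RIGI, the effectors IFIT1, IFITM2, OAS3, SAMD9 and PARP9, and the antigen presentation genes TAP1, HLA-B, HLA-C and B2M. RIGI encodes RIG-I (chromosome 9, 32455300 to 32526206, minus strand) and was at 2.82 and 2.12 FPKM in the A549 controls, 4.21 with siRNA 28 and 5.60 with siRNA 30. In H2023 it was at 3.21 and 3.19 FPKM in the controls, 4.73 with siRNA 28 and 6.70 with siRNA 30. In H460 it was at 2.54 and 2.89 FPKM in the controls, 3.52 with siRNA 28 and 5.99 with siRNA 30. The order control, siRNA 28, siRNA 30 was the same in each line. Another annotated gene overlaps RIGI on its strand, as for 12 of the 48 members, and reads in the shared stretch could be counted for either.

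Over the lines, with cell line as a covariate, 8 of 33 tested members rose with siRNA 28 and 0 fell, beside backgrounds of 9.39% higher and 7.50% lower. With siRNA 30, 11 of 33 rose and 0 fell, beside backgrounds of 8.50% and 10.2%. The comparisons share the 6 control libraries. IFITM3, called in both, and IRF7, called in neither, passed the filter in A549 through the NRF2 siRNA libraries alone. Without genes of this kind 7 of 31 rose with siRNA 28 (8.78% of genes) and 10 of 31 with siRNA 30 (7.93%), and 0 fell with either (7.45% and 10.3%). IFITM2, IFITM3, PARP9, RIGI, HLA-B and HLA-C were called in both, STAT2 and TAP1 with siRNA 28, and SAMD9, IFIT1, IFIT3, PSMB9 and IRF1 with siRNA 30. The median over all 48 members was 0.26 with siRNA 28 and 0.41 with siRNA 30, against 0.01 and -0.01 over all genes tested.

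Among the sensors, RIGI rose by 0.44 ± 0.13 with siRNA 28 (adjusted p = 0.0370) and by 0.91 ± 0.13 with siRNA 30 (adjusted p = 0.00116). The siRNA 28 call for RIGI was kept in 8 of 16 alternative settings and the siRNA 30 call in 16 of 16, the leaving out of each library among them. IFIH1 encodes MDA5, which senses long double-stranded RNA, and was at 1.59 and 1.22 FPKM in the A549 controls, 2.05 with siRNA 28 and 2.33 with siRNA 30. In H2023 it was at 13.5 and 9.36 FPKM in the controls, 13 with siRNA 28 and 7.44 with siRNA 30, and in H460 at 1.39 and 1.72 FPKM, 1.73 and 4.48. Its lines thus pointed different ways, and IFIH1 passed neither test over the lines (adjusted p = 0.585 and 0.355). DHX58 encodes LGP2, a regulator of RIG-I and MDA5. It was at 0.303 FPKM or less in A549, at 3.11 and 3.59 in the H2023 controls, 5.88 with siRNA 28 and 3.85 with siRNA 30, and at 1.99 and 1.83 in the H460 controls, 3.83 and 3.98. In H460 the DHX58 difference was 0.75 ± 0.26, adjusted p = 0.0960.

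The remaining sensors showed no call between siRNA and control. TLR3, the endosomal RNA sensor, was at 1.93 and 1.12 FPKM in the A549 controls, 1.68 with siRNA 28 and 2.70 with siRNA 30, stayed at 0.641 FPKM or less in H2023, and was at 2.08 and 1.75 FPKM in the H460 controls, 1.60 with siRNA 28 and 3.49 with siRNA 30. CGAS, the cytosolic DNA sensor, was at 1.73 to 1.91 FPKM in A549, at 3.21 and 5.01 in the H2023 controls, 3.31 and 4.69 with the siRNAs, and at 2.49 and 2.20 in the H460 controls, 1.70 and 1.76. The CGAS libraries of H460 with NRF2 siRNA lay below both controls (difference -0.29 ± 0.26, adjusted p = 0.466). STING1, which relays the cGAS signal, was at 0.352 FPKM or less in A549, at 1.35 and 3.04 in the H2023 controls, 2.21 and 2.71 with the siRNAs, and at 4.30 and 9 in the H460 controls, 7.08 and 13.4. EIF2AK2 encodes PKR, which halts translation on double-stranded RNA, and was at 28.2 and 26.2 FPKM in the A549 controls, 28.7 and 24.9 with the siRNAs. In H2023 it was at 23.7 and 23.9 FPKM in the controls, 29.1 and 22.0 with the siRNAs, and in H460 at 33.7 and 34.3 FPKM, 23.2 and 28.7. The H460 libraries with NRF2 siRNA lay below both controls for EIF2AK2, and no knockdown test called it.

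Among the signalling factors, STAT2 rose with siRNA 28 over the lines (0.83 ± 0.25, adjusted p = 0.0405), and its difference with siRNA 30 was 0.55 ± 0.25, adjusted p = 0.134. STAT2 was at 10.6 and 12.6 FPKM in the A549 controls, 15.5 with siRNA 28 and 13.8 with siRNA 30, and at 19.0 and 23.8 in the H2023 controls, 29.4 and 22.2. IRF1, which drives interferon and antigen presentation genes, rose with siRNA 30 (0.84 ± 0.24, adjusted p = 0.0353). It was at 6.42 and 6.96 FPKM in the A549 controls, 7.08 with siRNA 28 and 10.5 with siRNA 30, at 16.8 and 17.9 in the H2023 controls, 16 and 19.3, and at 5.49 and 6.85 in the H460 controls, 5.86 and 23.6. The H460 siRNA 30 library stands out, and with siRNA 28 the IRF1 difference was -0.03 ± 0.24. IRF7, the main amplifier of interferon production, was at 0.914 and 0.721 FPKM in the A549 controls, 1.28 and 1.17 with the siRNAs, at 2.97 and 4.29 in the H2023 controls, 3.62 and 3.48, and at 1.33 and 0.933 in the H460 controls, 2.35 and 4.08. The IRF7 difference in H460 was 0.96 ± 0.31, adjusted p = 0.0870.

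IRF9, the DNA-binding subunit of ISGF3, was at 10.4 and 9.94 FPKM in the A549 controls, 13.3 with siRNA 28 and 8.36 with siRNA 30. In H2023 it was at 25.1 and 26.3 FPKM in the controls, 32.0 and 16.7 with the siRNAs, and in H460 at 4.82 and 8.13 FPKM, 16.2 and 11.8. IRF9 was higher with siRNA 28 than with siRNA 30 in each line. The IRF9 values are uncertain because a protein-coding gene model overlaps it on the same strand, and the authors' mean normalised count of A549 was 37.4, that of H2023 21.5 and that of H460 17.8.

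The IFIT and IFITM proteins act on foreign RNA and on virus entry. IFIT1 rose with siRNA 30 over the lines (1.27 ± 0.29, adjusted p = 0.0139), and IFIT3, its binding partner, rose with siRNA 30 as well (0.64 ± 0.20, adjusted p = 0.0467). IFIT1 was at 2.75 and 7.32 FPKM in the H2023 controls, 8.27 and 7.62 with the siRNAs, and at 1.1 and 1.87 in the H460 controls, 3.35 with siRNA 28 and 9.18 with siRNA 30. IFIT1 and IFIT3 each have 2 matches in the printed windows, all on the strand opposite to the gene. IFIT3 was at 1.06 and 0.710 FPKM in the A549 controls, 0.830 and 1.13 with the siRNAs, at 4.66 and 6.75 in the H2023 controls, 5.31 and 7.98, and at 4.57 and 5.18 in the H460 controls, 4.71 and 13.5. With siRNA 28 the IFIT3 values stayed among or near the controls in all 3 lines (-0.05 ± 0.20).

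IFITM2 rose with both siRNAs, by 1.07 ± 0.26 with siRNA 28 (adjusted p = 0.0194) and 1.06 ± 0.26 with siRNA 30 (adjusted p = 0.0192). In H460 it was at 31.3 and 45.8 FPKM in the controls, 72.8 with siRNA 28 and 153 with siRNA 30 (1.46 ± 0.39 in that line, adjusted p = 0.0551). IFITM3, which blocks influenza and other enveloped viruses, rose by 0.72 ± 0.19 with siRNA 28 (adjusted p = 0.0273) and 0.80 ± 0.19 with siRNA 30 (adjusted p = 0.0173). It was at 0.711 and 0.622 FPKM in the A549 controls, 1.94 and 1.46 with the siRNAs, so that IFITM3 entered these tests only through the A549 libraries in which it was high. In H2023 IFITM3 was at 231 and 245 FPKM in the controls, 455 and 327 with the siRNAs, and in H460 at 243 and 239 FPKM, 323 and 635. IFITM2 and IFITM3 are close paralogues, and reads they share are split by an estimate. IFITM1 did not pass 1.01 FPKM in any library, and IFIT5 was at 8.91 to 17.5 FPKM throughout without a call.

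**Figure D3:**
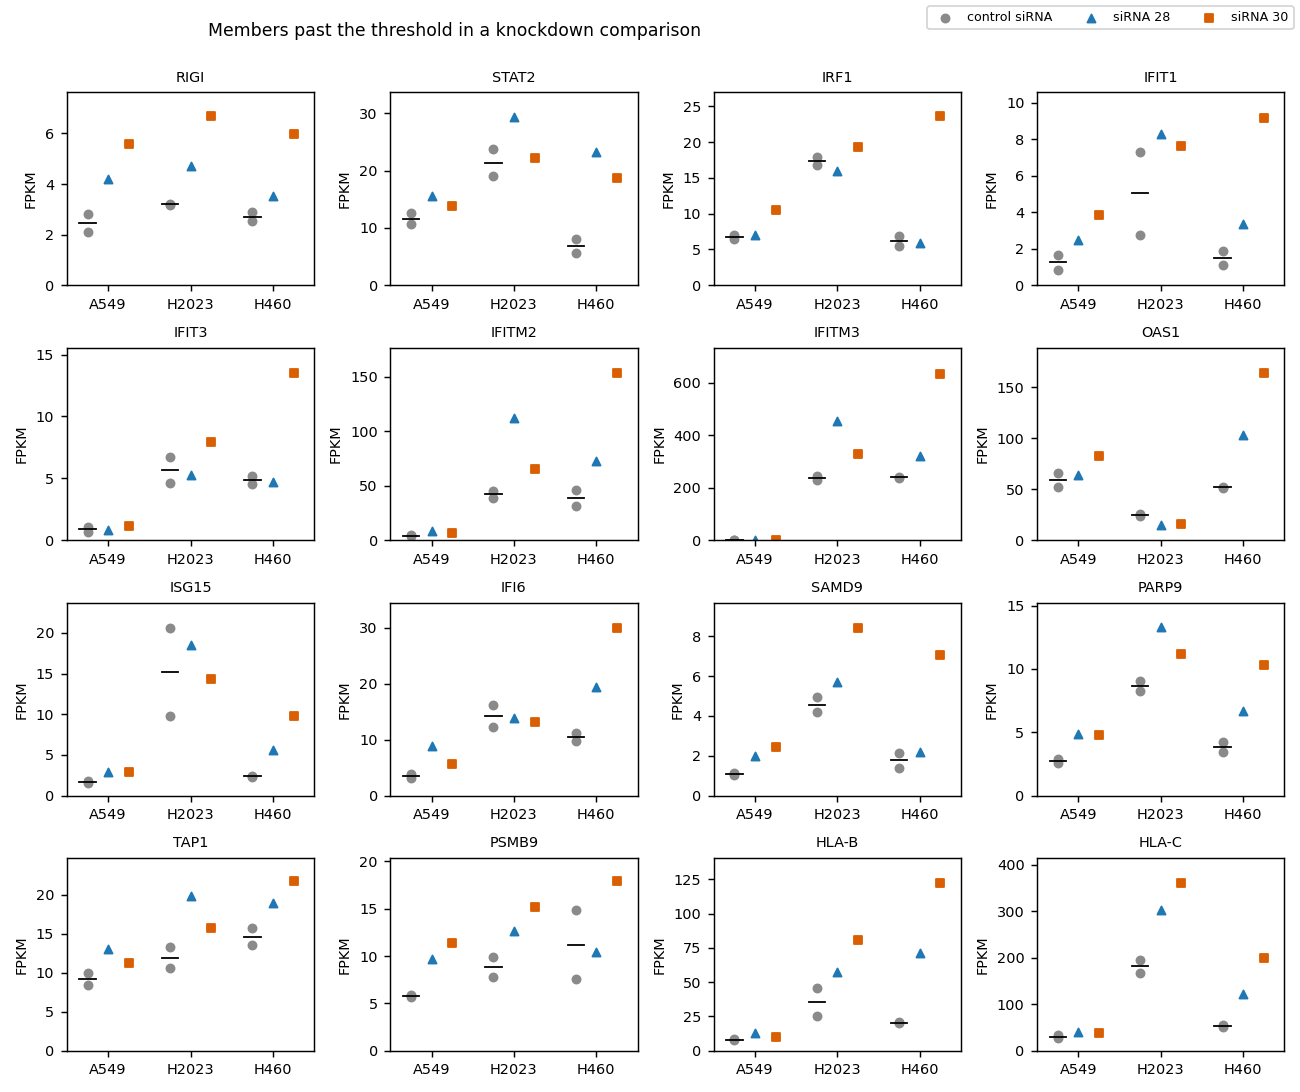
FPKM (linear axes from 0, a separate scale for each gene) of the 16 members past the threshold in H460 or with either siRNA over the lines, by cell line. Grey circles are the 2 control libraries with their mean as a bar, blue triangles siRNA 28 and orange squares siRNA 30. RIGI, IFIT1, IFITM2, SAMD9, PARP9, TAP1, HLA-B and HLA-C have both coloured points above the grey points in each line, whereas OAS1 has them below in H2023. IFITM3 has them above in each line too, but the filter fixed its order in A549.

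Of the other effectors, SAMD9, an antiviral factor that restricts poxviruses, rose with siRNA 30 (1.02 ± 0.19, adjusted p = 0.00543) and its call was kept in 16 of 16 alternative settings. It was at 1.11 and 1.05 FPKM in the A549 controls, 2 FPKM with siRNA 28 and 2.44 with siRNA 30. In H2023 SAMD9 was at 4.19 and 4.94 FPKM in the controls, 5.71 and 8.43 with the siRNAs, and in H460 at 1.38 and 2.15 FPKM, 2.21 and 7.06. With siRNA 28 its difference was 0.35 ± 0.19, adjusted p = 0.213. PARP9, a partner of a ubiquitin ligase in interferon signalling, rose with siRNA 28 by 0.63 ± 0.16 (adjusted p = 0.0230) and with siRNA 30 by 0.73 ± 0.16 (adjusted p = 0.0118). It was at 2.88 and 2.55 FPKM in the A549 controls, 4.89 and 4.75 with the siRNAs, at 9.07 and 8.23 in the H2023 controls, 13.3 and 11.2, and at 3.48 and 4.23 in the H460 controls, 6.70 and 10.3. PARP9 thus had the same direction with each siRNA in each line.

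Of the 5 antigen presentation members, 3 rose with siRNA 28 and 3 with siRNA 30, beside 9.39% and 8.50% of all tested genes. TAP1, which pumps peptides into the endoplasmic reticulum, rose with siRNA 28 (0.50 ± 0.13, adjusted p = 0.0285) and differed by 0.40 ± 0.13 with siRNA 30 (adjusted p = 0.0577). TAP1 was at 9.99 and 8.47 FPKM in the A549 controls, 13 and 11.3 with the siRNAs, at 10.6 and 13.3 in the H2023 controls, 19.8 and 15.8, and at 13.5 and 15.8 in the H460 controls, 19.0 and 21.8. PSMB9 rose with siRNA 30 (0.77 ± 0.20, adjusted p = 0.0216), with H2023 values of 9.93 and 7.75 FPKM in the controls, 12.7 and 15.2 with the siRNAs, and H460 values of 7.55 and 14.9 FPKM, 10.4 and 17.9. The H460 controls of PSMB9 differed from each other by more than its siRNA 30 library exceeded the higher of them. HLA-B rose with siRNA 28 (1.05 ± 0.32, adjusted p = 0.0431) and siRNA 30 (1.33 ± 0.32, adjusted p = 0.0167), and HLA-C by 0.77 ± 0.22 (adjusted p = 0.0352) and 1.08 ± 0.22 (adjusted p = 0.00884). In A549, HLA-B was at 8.26 and 7.49 FPKM in the controls, 13.1 and 9.82 with the siRNAs, and HLA-C at 33.3 and 27.0 FPKM, 39.9 and 38.4. B2M, the invariant chain of class I molecules, was the most abundant member, at 394 and 322 FPKM in the A549 controls, 485 and 447 with the siRNAs, at 596 and 611 in the H2023 controls, 681 and 659, and at 929 and 804 in the H460 controls, 1314 and 1939. B2M passed no knockdown test, with an adjusted p of 0.133 for siRNA 28 and 0.0568 for siRNA 30.

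The counts over the lines rested on single libraries in part. With siRNA 30, 2 of 32 members (RIGI and SAMD9) were called without the H460 siRNA 30 library, beside 1.47% of all genes called higher. With siRNA 28, the count was 0 without the H2023 siRNA 28 library, 1 without that of A549 (STAT2), 2 without that of H460 (IFITM2 and IFITM3), 3 without the first H2023 control (IFITM2, IFITM3 and PARP9), 4 without the first H460 control (IFITM2, IFITM3, PARP9 and TAP1), and 5 without the second control of either A549 or H460. The share of all genes called higher in these siRNA 28 fits ran from 1.89% without the H460 siRNA 28 library to 7.43% without the first H460 control, and was 3.38% where no member was called. Calls with siRNA 28 were kept in 6 (HLA-B) to 13 (IFITM2) of 16 alternative settings, STAT2 in 8, and those with siRNA 30 in 9 (IRF1) to 16 of 16. IFIT3 kept its siRNA 30 call in 5 of 14 settings, and IFITM3 its calls in 11 and 12 of 14. Of the called members with a listed promoter, the response element was present in 2 of 6 in H460 (ISG15 and IFI6), in 2 of 7 with siRNA 28 (IFITM3 and TAP1) and in 4 of 10 with siRNA 30 (IFIT1, IFIT3, IFITM3 and SAMD9). IFITM3, counted in both, is the member that passed the A549 filter through the NRF2 siRNA libraries alone. Among all tested members with a listed promoter it was present in 21 of 34 in H460 and in 17 of 29 over the lines, and no test was made of these small counts, in which the called members are part of the tested ones.

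Between the 2 siRNAs, 0 of 44 tested members differed over the lines by limma, and the share over all 15716 tested genes was 0% too. Without adjustment, p was under 0.05 for 8 members and for 18.2% of all tested genes, the same share. Of the 8, IRF9 was higher with siRNA 28 and 7 were lower. IRF9 had the smallest adjusted p (0.163, difference siRNA 28 minus siRNA 30 of 0.64 ± 0.16). Largest in size was IFIT2 (-1.16 ± 0.42, adjusted p = 0.237), whose H2023 values were 2.54 and 4.13 FPKM in the controls, 2.66 with siRNA 28 and 6.58 with siRNA 30. Within single lines, siRNA 30 was at least 2-fold above siRNA 28 on the FPKM + 1 scale for 0 of 34 tested members in A549 (0.720% of tested genes), for 1 of 42 in H2023 (IFIT2, 3.62%) and for 10 of 44 in H460 (4.72%). The 10 in H460 were IFIH1, IRF1, IFIT1, IFIT2, IFIT3, IFITM2, OAS2, DDX60, IFI44L and SAMD9. The reverse held for 0 members in A549 (2.07% of tested genes), for 2 of 42 in H2023, MX1 and BST2 (4.05%), and for 0 in H460 (4.94%). The median over the 48 members of siRNA 30 minus siRNA 28 was 0.62 in H460, against -0.05 in A549 and -0.05 in H2023. Each of these within-line values sets 1 library against 1 library and has no replicate check.

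In H460, IFIT2 was at 1.53 and 1.40 FPKM in the controls and 1.39 with siRNA 28, and at 11 with siRNA 30. DDX60, a helper of RIG-I, was at 0.908 and 2.05 FPKM in the controls, 0.777 with siRNA 28 and 2.90 with siRNA 30. OAS2 was at 0.532 and 1.06 FPKM in the controls, 0.512 with siRNA 28 and 2.86 with siRNA 30. In IFIT2, IFIT3, IRF1, DDX60 and OAS2 the siRNA 28 library lay among or just below the controls. IFI44L went the other way, at 15.3 and 17.2 FPKM in the controls, 5.02 with siRNA 28 and 13.5 with siRNA 30.

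**Figure D4:**
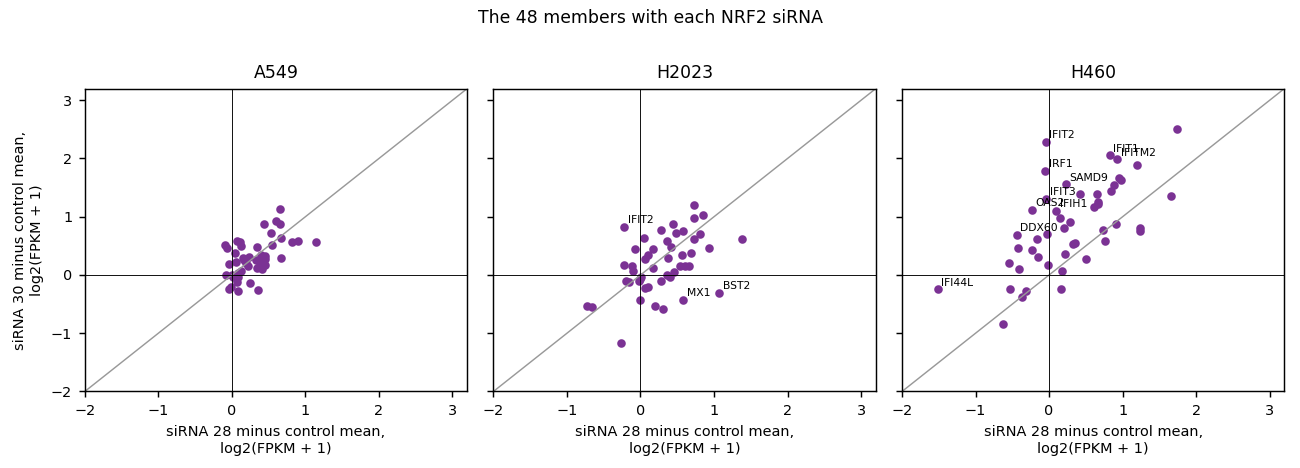
Difference of the siRNA 28 library (x axis) and of the siRNA 30 library (y axis) from the control mean, in log2(FPKM + 1), for the 48 members in each line. Points above the grey diagonal were higher with siRNA 30, both axes share the same control mean, and named points differ by at least 1 between the siRNAs. Of the 48 points, 19 lie above the diagonal in A549, 22 in H2023 and 38 in H460, low members included. Each point sets 1 library against 1 library, and the share of all genes above the diagonal was not counted.

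Between the lines, the change with NRF2 siRNA differed in 1 of 33 tested members, beside 2.51% of all tested genes. That member was OAS1 (adjusted p = 0.0346). It was at 65.6 and 52.2 FPKM in the A549 controls, 64.1 with siRNA 28 and 82.9 with siRNA 30, and at 25.5 and 23.9 in the H2023 controls, 15.3 and 16.5. OAS1 was thus above both controls with both siRNAs in H460 and below them in H2023, where the difference was -0.60 ± 0.17 (adjusted p = 0.185). The call was kept in 6 of 17 alternative settings, with adjusted p from 0.0124 to 0.137, and OAS1 was lost on leaving out any single A549 library, either H2023 control, the H2023 siRNA 30 library or either H460 control. Next by adjusted p were STAT2 (0.0747) and IFI35 (0.0803). IFI35, an interferon-induced leucine zipper protein, was at 27.3 and 22.4 FPKM in the H2023 controls, 14.5 with siRNA 28 and 16.8 with siRNA 30, and at 18.5 and 17.0 in the H460 controls, 28.4 and 48.0.

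With control siRNA alone, H460 and H2023 differed widely in these genes, as they did in general: 9 of 43 tested members were higher in H460 and 14 lower, beside backgrounds of 24.6% and 24.2%. BST2, OASL and MX1 reached 1 FPKM in H2023 controls alone and TLR3 in H460 controls alone, which fixed their order. Without genes of this kind 8 of 39 were higher (23.9%) and 11 lower (18.7%). All 4 signalling factors were lower in H460, STAT2 by -1.53 ± 0.22 (adjusted p = 0.00315), IRF1 by -1.36 ± 0.18 (0.00232), IRF7 by -1.11 ± 0.23 (0.0104) and IRF9 by -1.87 ± 0.24 (0.00214). The sensors split: IFIH1 (-2.27 ± 0.24) and DHX58 (-0.58 ± 0.19) were lower, whereas TLR3 (1.31 ± 0.21), STING1 (1.24 ± 0.39) and EIF2AK2 (0.50 ± 0.13) were higher. The call was kept in 2 of 8 alternative settings for DHX58, 3 of 8 for STING1 and 6 of 8 for EIF2AK2. For IFIH1 it was kept in 8 of 8 and for TLR3 in 6 of 6. BST2, the tether that holds budding viruses at the cell surface, was at 10.1 and 4.55 FPKM in the H2023 controls and 0.453 and 0.299 in the H460 controls. MX1, a GTPase against influenza virus, was at 3.18 and 5.90 FPKM against 0.669 and 0.628. Both were lower in H460, by -2.51 ± 0.35 and -1.70 ± 0.28.

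The other members lower in H460 were ISG15 (-2.17 ± 0.34), HLA-C (-1.76 ± 0.14), OASL (-1.08 ± 0.30), SAMD9 (-1.02 ± 0.22), PARP9 (-0.99 ± 0.19) and IFIT2 (-0.79 ± 0.24). In alternative settings IFIT2 kept its call in 3 of 8, OASL in 4 of 6 and SAMD9 in 5 of 8. ISG15 and PARP9 kept theirs in 7 of 8 and HLA-C in 8 of 8. The largest differences in the other direction were in a pair of related genes: IFI44L was at 1.91 and 2.48 FPKM in the H2023 controls and 15.3 and 17.2 in the H460 controls (2.44 ± 0.20), and IFI44 at 1.36 and 3.63 FPKM against 10.3 and 18.1 (2.15 ± 0.40). SAMHD1, which depletes nucleotides, was at 3.93 and 3.75 FPKM against 10.9 and 11.2 (1.31 ± 0.18), and the exonuclease ISG20 at 60.5 and 42.2 against 108 and 91.9 (0.96 ± 0.20). OAS1 (1.05 ± 0.13) and B2M (0.52 ± 0.16) were also higher in H460, with the call kept in 8 of 8 alternative settings for OAS1 and 4 of 8 for B2M. Calls fell on both sides among the sensors, the other effectors and antigen presentation. Among the nucleic acid enzymes OAS1, ISG20 and SAMHD1 were higher, and the lower one was OASL, whose order the filter fixed. The count was 15 without the first H2023 control and 13 without the second, beside 25.3% and 25.6% of all genes called. These lines share the polyA protocol, but each is 1 line, so the difference is between these cultures.

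**Figure D5:**
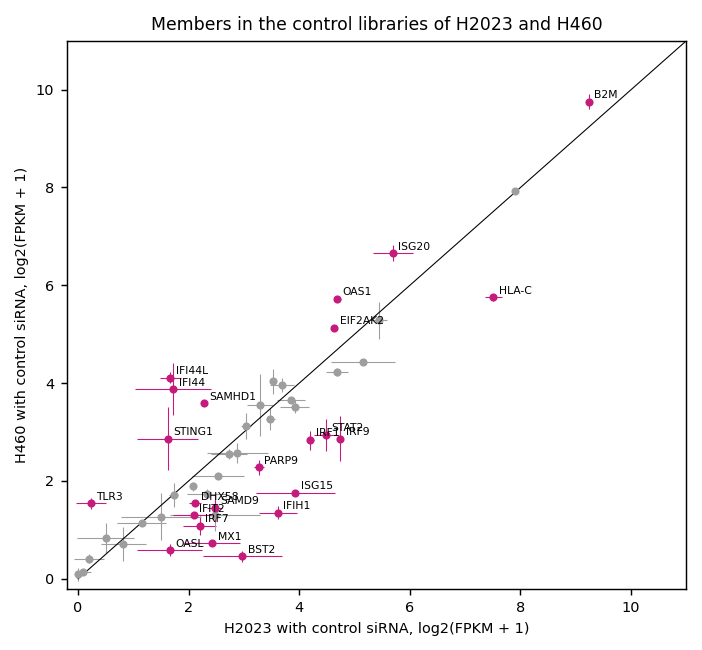
Level of the 48 members in log2(FPKM + 1) in the control libraries of H2023 (x axis) and H460 (y axis), as means with SD of 2 libraries each. The diagonal marks equal levels, and the 23 members past the threshold are pink and named, with IFI44L, IFI44 and TLR3 above the line and BST2, IFIH1, MX1 and HLA-C below it.

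Several members stayed near the limit of the measurement. The authors' mean normalised count was 0.995, 5.64 and 9.40 for IFITM1 in A549, H2023 and H460, and 1.53, 1.73 and 3.73 for MX2, and neither was tested within a line. In H460, IFITM1 was at 0.135 and 0 FPKM in the controls, 1.01 with siRNA 28 and 0.950 with siRNA 30, and MX2 at 0.119 and 0.0679 FPKM in the controls, 0.364 and 0.589 with the siRNAs. Both lay above their controls there with both siRNAs, on these few counted reads. OAS2, with 3.93, 13.8 and 36.2, was tested in H460 only. TRIM22 was at 0.391 and 0.270 FPKM in the H460 controls, 2.12 with siRNA 28 and 1.25 with siRNA 30 (adjusted p = 0.0625). USP18, which removes ISG15 from proteins, was at 4.37 to 8.68 FPKM in all libraries, and its relatives in that system, HERC5 and HERC6, at 0.787 to 3.51 FPKM, without a call in any comparison. PARP14 (6.78 to 13.5 FPKM), TRIM21 (4.98 to 10.8 FPKM) and OAS3 (11.6 to 20.5 FPKM) were not called in any comparison either.

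The other genes of the interferon pathway, 53 of a list of 55 found in the files, moved in both directions. None of 37 tested in A549 and none of 41 tested in H2023 was called by limma, with 7 and 10 at an unadjusted p under 0.05, beside 13.3% and 16.9% of all tested genes. In H460, 8 of 39 were called, 6 higher and 2 lower, beside 7.12% and 6.86% of all tested genes. The class I molecules HLA-F (2.29 ± 0.32) and HLA-E (0.96 ± 0.22) and the interferon-γ receptor chain IFNGR2 (1.56 ± 0.30) rose, while TRIM14 fell by 1.38 ± 0.31 and PLSCR1, an interferon-inducible scramblase, fell by 1.39 ± 0.32. Over the lines, 6 of 36 were called with siRNA 28, 4 higher and 2 lower, beside 9.39% and 7.50% of all tested genes, which is near their share. Among them HLA-E and IL10RB were higher and IFNGR1 lower (-0.87 ± 0.16). With siRNA 30, 11 of 36 were called, 8 higher and 3 lower, beside 8.50% and 10.2%. GBP2, one of the 8, passed the filter in H460 through the NRF2 siRNA libraries alone, and without genes of this kind 7 of 34 were higher (7.93%) and 3 lower (10.3%), with HLA-E higher (0.72 ± 0.15) and PLSCR1 lower (-1.27 ± 0.22). PLSCR1 was at 24.0 and 21.7 FPKM in the H460 controls, 10.8 with siRNA 28 and 6 with siRNA 30. Between the siRNAs and in the test of the difference between lines, 0 were called by limma, with 8 of 41 and 8 of 36 at an unadjusted p under 0.05, near the 18.2% and 21.2% of all tested genes.

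The interferon genes on that list were looked up after the other values had been seen. IFNB1 and IFNL3 were listed at 0 in all 12 libraries. IFNL1, IFNL2, IFNE and IFNG did not pass 0.225 FPKM in any library. RSAD2, the antiviral enzyme viperin and a commonly used readout of an interferon response, was at 0.397 FPKM at most, in H460 with siRNA 30. Among these 6 interferon genes the highest value was that of IFNE in H460, at 0.00839 and 0 FPKM in the controls, 0.225 with siRNA 28 and 0.155 with siRNA 30. IFNE was listed at 0 in all 4 A549 libraries, where the authors' mean normalised count was 16.9, so a listed 0 there does not show that no read was counted. None of these 6 interferon genes was tested.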

How the data were processed

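RNA from A549, H2023 and H460 cells was sequenced with strand-specific kits. The study's methods name TopHat for alignment (hg19) and Cufflinks for the estimates, whereas the submitters' processing notes name bcl2fastq 2.15.0, cutadapt 1.15, STAR 2.5.3a, SAMtools, Cuffnorm, HTSeq, DESeq2 and R 3.2.0, and both are given here. The authors deposited 1 FPKM file per library (57815 genes) and 1 DESeq2 table per line, from which only the mean normalised count (a signal value, the authors' mean) was read, and its log2 fold changes, scores and p-values were not used. FPKM divides by length and library total, so a large transcript class moves all other values.

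FPKM values under 1e-06 (12710 values) were set to 0. Symbols came from GENCODE release 44 lifted to GRCh37 by identifier without version (96.1% matched). Positions are those of whole genes. Moderated tests on log2(FPKM + 1) used limma 3.58.1 under R 4.3.3, with a variance trend, Benjamini-Hochberg adjustment over all tested genes and a threshold of 0.05. Lines were fitted on their 4 libraries. Fits over the lines used cell line as a covariate. Where they set NRF2 siRNA libraries against controls, they required 1 FPKM in 2 libraries of every line. The siRNAs were compared in the 6 knockdown libraries without that requirement for every line. The members tested there reached 1 FPKM in at least 2 of these 6 libraries, and the members not tested there did not. IFI44L, listed at 0 in all 4 A549 libraries, was thus tested between the siRNAs. Scripts were tested on simulated data. Python 3.11.15 with pandas 2.3.3, numpy 2.4.6 and matplotlib 3.10.9 served for tables and plots. No library pair had identical values.

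The members, the lists and the tests were chosen with earlier results of these data known. Values per library are given for members past the threshold in any comparison (up to 25 each), all sensing and signalling members, and the 5 tested members with the largest difference in each line, and other pathway genes, up to 6 per comparison, where past the threshold. Members named beyond this rule were chosen after their values were seen. Alternatives were another pseudocount (0.1), no filter, a rescaling without mitochondrial transcripts, one prior variance, a replicate block, fits of all 12 libraries, and leaving out each library. Leaving out genes that reached 1 FPKM in 1 of the compared groups alone was chosen after seeing the data. Results for some genes of the lists are not reported here.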

Additional observations from a re-analysis of the deposited data

Results flagged for a closer look

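The effect of NRF2 siRNA on OAS1 differed between the lines by limma's test of the difference, with an adjusted p of 0.0346, below both controls in H2023 and above both in H460. OAS1 was the 1 member called of 33 tested, near the 2.51% of all tested genes. Its call was kept in 6 of 17 alternative settings. For 5 other members both NRF2 siRNA libraries lay above both controls in one line and below both in another, and the difference between lines did not pass its test. The adjusted p of that test was 0.741 for CGAS (above in A549, below in H460), 0.106 for ISG20 (above in A549 and H460, below in H2023), 0.115 for SAMHD1 (above in H2023, below in H460), 0.0803 for IFI35 (below in H2023, above in H460) and 0.739 for TRIM21 (above in A549, below in H2023). In single lines, 24.2% to 28.7% of all genes at 1 FPKM in both groups lay above with both siRNAs, and 20.1% to 32.0% below. The share of all genes with opposite positions in different lines was not counted, so these 5 are no result about the members.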

How the results depend on the processing

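With 2 libraries a group, of which the NRF2 siRNA pair differs in siRNA, the counts of called members moved easily. With every gene of any value tested, the count was 0 in H460, 0 with siRNA 28, 2 with siRNA 30, 0 for the difference between lines and 11 for H460 against H2023. Rescaling without mitochondrial transcripts gave 12 in H460 and a median of 0.33 with siRNA 28, and 1 fit of all 12 libraries gave 18 of 44 in H460, 17 of them higher, beside 17.3% of all genes higher. With a pseudocount of 0.1 the medians were 0.39 in A549 and 0.41 with siRNA 28. Without genes that reached 1 FPKM in 1 group alone, an alternative chosen after seeing the data, the counts were 6 in H460, 7 with siRNA 28, 10 with siRNA 30 and 19 for H460 against H2023. The share of all genes called changed with the setting as well, and in H460 no gene at all was called with every gene tested. A changed count thus does not describe the members alone. The cause of these changes was not tested.

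With the replicate number as a block the count was 0 in A549, 3 of 42 in H2023 (IFITM2, HLA-B and HLA-C, all higher, beside 2.94% of all genes), 13 of 44 in H460 (all higher, beside 12.2%) and 0 for the difference between lines. The labels give no pairing, and same-numbered differences correlated at -0.03, 0.31 and 0.16 in A549, H2023 and H460, so the numbers were not taken as pairs.

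A lone library left in a group was assumed to vary like the other groups. Leaving out each library in turn gave counts of 0 to 1 in A549, 0 to 3 in H2023, 0 to 18 in H460, 0 to 12 with siRNA 28, 2 to 12 with siRNA 30, 0 between the siRNAs, 0 to 5 for the difference between lines and 13 to 21 for H460 against H2023. The share of all genes called changed between such fits too, so the range of a count does not describe the members alone. The medians ran from 0.10 to 0.38 in H2023, from 0.22 to 0.81 in H460, from 0.22 to 0.31 with siRNA 28 and from -0.32 to -0.05 for H460 against H2023. The median of siRNA 28 minus siRNA 30 ran from -0.29 to 0.01 and turned to 0.01 without either H460 knockdown library. Of 613 values of single genes under the alternatives, 455 kept their call, 158 lost it and 0 changed direction.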

Other observations

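Among markers of other cell types, the fibroblast list of COL1A1, COL3A1 and DCN summed to 5.37 and 5.61 FPKM in the H460 controls and to 11.1 and 14.5 FPKM in the H460 NRF2 siRNA libraries. The endothelial list did not pass 0.140 FPKM in any library. The plasmacytoid dendritic list, CLEC4C and IL3RA, was at 0.042 and 0.122 FPKM in the H460 controls and at 0.794 and 1.24 FPKM with NRF2 siRNA, with CLEC4C at 0 in all 4. The part of these genes in the values of the members was not tested.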
